A study of Mus musculus with 24 samples.

Results

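The interferon regulatory factors (IRFs) Irf1, Irf2, Irf3, Irf5, Irf7, Irf8 and Irf9 were followed by RNA sequencing in 8 lines of MC38, a mouse colorectal cancer cell line from C57BL/6 mice. These 7 genes were chosen by name from the 52636 gene identifiers of the table, and all 7 were matched by symbol. IRFs are transcription factors that share a DNA-binding domain for interferon-stimulated response elements (ISREs) in the promoters of interferon genes and interferon-stimulated genes. IRF3 and IRF7 are activated by kinases downstream of nucleic acid sensors and drive interferon genes, IRF9 is the DNA-binding part of the complex ISGF3, with STAT2, that answers type I interferon, IRF1 is an interferon gamma-induced activator of antigen presentation genes, and IRF2 can oppose IRF1 at shared sites. IRF5 and IRF8 act mainly in myeloid and lymphoid cells.

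Each line was sequenced in 3 samples from separate passages, except that samples 1 and 3 of the line labelled FUT4 carry the same passage. MC38-CMAS KO, MC38-COSMC KO and MC38-DKO (both genes) were made with CRISPR-Cas9 and have MC38-MOCK#1 as their reference. These 4 lines were harvested at passages 4, 5 and 6. The lines labelled FUT4 and FUT9 were made with CRISPR-dCas-VPR, a gene activator, and have MC38-MOCK#2 as their reference. MC38-MOCK#2 and MC38-FUT9 were at passages 6, 7 and 8, the line labelled FUT4 at passages 7, 8 and 7, and unmodified MC38-WT at passages 7, 8 and 9. All lines but MC38-WT grew in puromycin, so puromycin and the unmodified state cannot be told apart. The knockout of COSMC (gene C1galt1c1), the chaperone of T-synthase, leaves O-glycans at the Tn antigen, and its cells were sorted in bulk for binding of a GalNAc-specific lectin. CMAS activates sialic acid. Each modification is represented by 1 line, so a line and its modification cannot be told apart.

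The targeted genes were checked first. Cmas RNA was 93 to 142 normalized counts in MC38-CMAS KO and MC38-DKO, and at least 272 in each sample of the other lines. C1galt1c1 was 124 to 163 in MC38-COSMC KO and 220 to 251 in MC38-MOCK#1, whereas MC38-DKO (166 to 206) overlapped MC38-CMAS KO (152 to 215). RNA level does not show whether a gene's coding sequence was disrupted, and mutations were not examined here. For MC38-COSMC KO the authors reported C1galt1c1 mutations in a Surveyor assay, lost T-synthase activity and raised Tn antigen staining. Fut4 was at most 1 in every sample, those of the line labelled FUT4 included, and that line had 171 to 209 for Fut9, against 641 to 955 in MC38-FUT9 and at most 7 in all other lines. The sample totals lay between 10911849 and 12263307 normalized counts, made from an estimated 6759207 to 16230859 reads, so a single read was worth 0.756 to 1.67 normalized counts. Epithelial markers gave at most 10 normalized counts in any sample for 7 of 8 genes, the exception being Krt20 with up to 468. Of 9 leukocyte markers 7 stayed at or under 10, and the list without Cd14 summed to 0 to 26, with Cd14 itself at 227 to 472.

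Promoter stretches of Irf1, Irf2 and Irf7 are shown for the motifs they hold, and the part of these motifs in the results was not tested. The stretches run 5′ to 3′ on the gene's strand, from 250 to 61 bases before the RefSeq start site in build GRCm38.p6. Capitals mark matches on either strand to the ISRE core (GAAA, any 2 bases, GAAA) or to the STAT-type GAS motif TTCNNNGAA. They cover chr11:53769764-53769953 on the plus strand for Irf1, chr8:46739495-46739684 on the plus strand for Irf2 and chr7:141266485-141266674 on the minus strand for Irf7.
Irf1: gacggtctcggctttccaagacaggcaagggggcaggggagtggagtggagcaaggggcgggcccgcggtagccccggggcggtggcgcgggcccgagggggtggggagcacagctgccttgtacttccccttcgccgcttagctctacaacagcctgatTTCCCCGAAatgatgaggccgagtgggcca
Irf2: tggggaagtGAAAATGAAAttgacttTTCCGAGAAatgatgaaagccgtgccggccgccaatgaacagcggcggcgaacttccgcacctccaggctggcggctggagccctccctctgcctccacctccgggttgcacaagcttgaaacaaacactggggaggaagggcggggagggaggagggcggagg
Irf7: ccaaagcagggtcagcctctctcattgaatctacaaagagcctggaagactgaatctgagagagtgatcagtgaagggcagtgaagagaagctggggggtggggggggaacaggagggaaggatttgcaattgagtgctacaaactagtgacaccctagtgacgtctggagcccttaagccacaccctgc

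The Irf1 stretch holds a GAS match, the Irf2 stretch holds an ISRE match and a GAS match that do not overlap, and the Irf7 stretch holds neither. In windows of 300 bases (250 before to 50 after the start), Irf8 had 2 GAS matches, and Irf3, Irf5 and Irf9 had no match to either motif. The Irf9 windows lie downstream of the start of Irf9 in the annotation used for counting (chr14:55603571). The stretch before that start was therefore not searched. The ISRE core occurred in 3.44% and the GAS motif in 8.3% of the 32851 windows of all genes. Counted per gene, 10 of 18 genes with a window on a list of ISGF3, IRF3 and IRF7 targets held the ISRE core, as did 5 of 15 on a list of IRF1 targets, beside 3.99% of 27025 genes. A match is a match of letters only, and no binding was measured here.

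By level, the family fell into expressed and nearly silent members. Divided by exon length, the mean over 24 samples was 170 normalized counts per kb for Irf3, 145 for Irf1, 52.8 for Irf9, 45.5 for Irf2 and 14.3 for Irf7. Irf5 reached only 1.0 and Irf8 0.0295 per kb. Irf8, a factor of myeloid cells, was at 0 in 21 of 24 samples and never above 3 normalized counts, which is near the worth of single reads. Outside the set, Irf4 of lymphoid cells was also at 0 in 21 samples.

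**Figure D1:**
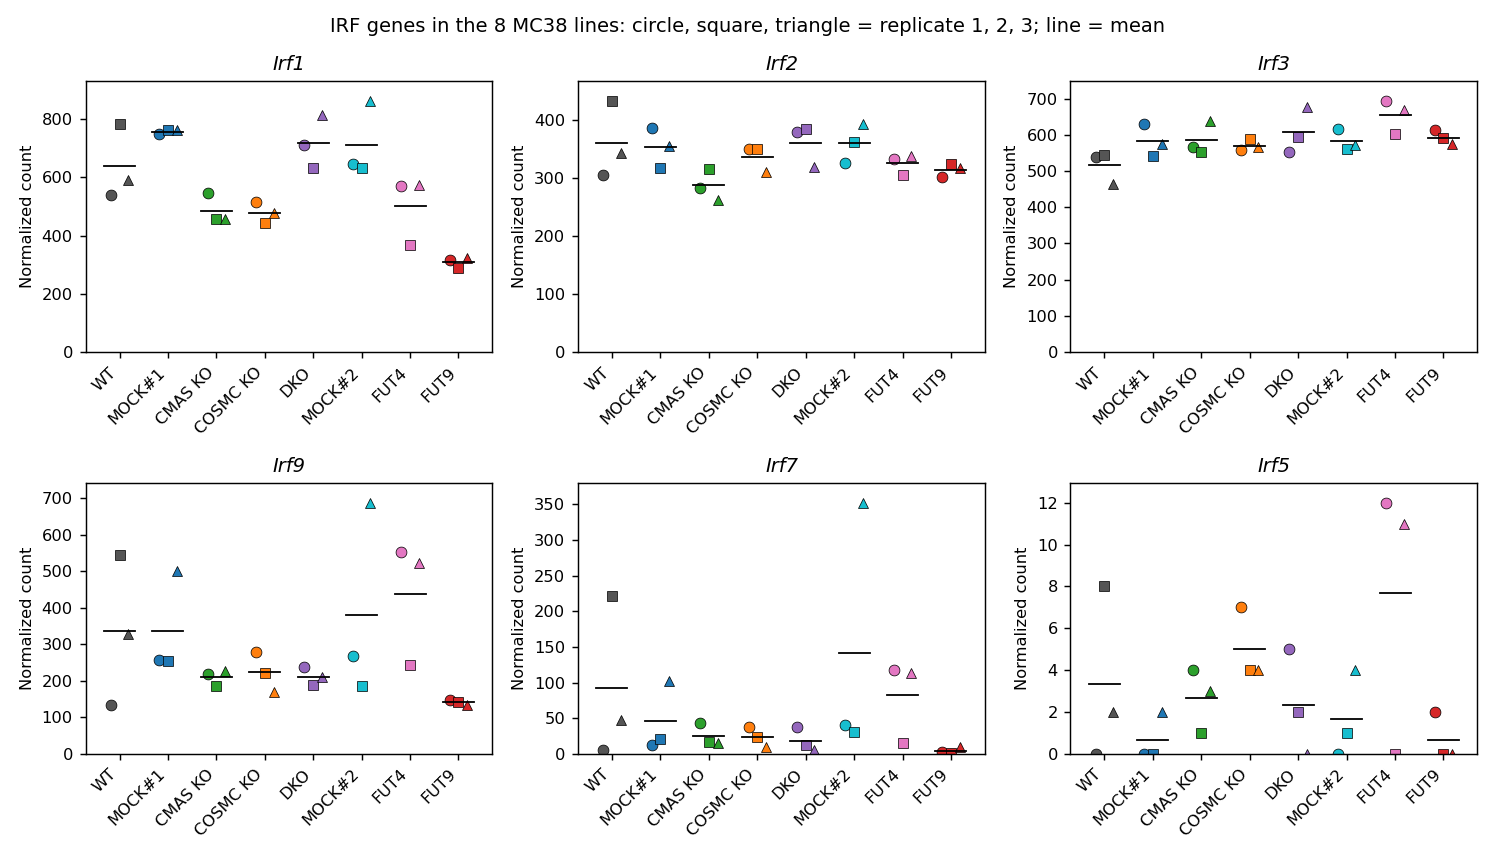
Normalized counts (vertical axes, starting at 0) of 6 IRF genes in the 8 lines, with 1 point per sample and the mean of 3 samples as a line. Irf1 was lowest in MC38-FUT9 (289 to 324), Irf3 stayed between 465 and 693, and single samples rose high in the panels of Irf7 and Irf9.

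Irf1 (chr11:53770014-53778374, plus strand) was the member whose level depended most on the line. Its mean was highest in MC38-MOCK#1, at 756 ± 8.08 normalized counts (SD, n = 3 here and below), followed by MC38-DKO at 718 ± 92.2, MC38-MOCK#2 at 712 ± 130 and MC38-WT at 638 ± 129. Lower means were found for the line labelled FUT4 (502 ± 118), MC38-CMAS KO (485 ± 51.7), MC38-COSMC KO (479 ± 35.5) and MC38-FUT9 (310 ± 18.3). Of the 7 pairs of neighbours in this order, 6 overlapped in their samples, and the step from MC38-COSMC KO down to MC38-FUT9 did not. Differences between lines made up 84.7% of the variance of Irf1 on the log2 scale, against 53.9% for Irf3, 48.6% for Irf7, 46.4% for Irf2 and 45.9% for Irf9. Over all 8 lines Irf1 was the only member called by the limma F test (adjusted p = 4.88e-06), among the 6 members tested and beside 48.2% of all genes tested. Irf7 (adjusted p = 0.0584) and Irf9 (adjusted p = 0.0826) missed the threshold in the same limma test, and leaving out single samples brought in up to 3 further members (without sample 2 of the line labelled FUT4). In RNA of whole cultures, fewer cells with a transcript and less of it per cell cannot be told apart.

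The question of the knockout lines is whether truncated glycans change the cells' transcription. In MC38-COSMC KO, Irf1 was 515, 444 and 477 normalized counts, and in MC38-MOCK#1 it was 747, 761 and 761. The groups did not overlap, and the log2 fold change on the scale of log2 of the value plus 1 was -0.66 with SE 0.0722 (limma, adjusted p = 0.00234). Of the 7 members tested, 1 was called, where 11.6% of all genes were called. Irf5 had 7, 4 and 4 in MC38-COSMC KO and 0, 0 and 2 in MC38-MOCK#1, levels of a few reads, with an adjusted p of 0.0538 in limma. The authors, using edgeR's exact test, listed both Irf1 and Irf5 among the genes changed in the COSMC knockout, and named Irf1 as suppressed. Samples did not overlap for these 2 members, and for 28.4% of all genes tested.

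Genes near the IRF pathway moved in both directions in that comparison. Nlrc5, the MHC class I transactivator that interferon gamma induces, fell by 1.38 on the log2 scale with SE 0.164 (limma, adjusted p = 0.00313), from 319 to 420 down to 121 to 166 normalized counts. Tbk1, the kinase of IRF3 and IRF7, was higher by 0.64 with SE 0.0675 (limma, adjusted p = 0.00215), with 785 to 842 against 504 to 556. On the list of IRF1 targets 7 of 16 tested genes were lower and 0 higher, where 5.39% of all genes were lower and 6.17% higher. Casp1 (log2 fold change -2.25), Gbp3 (-1.59), the immunoproteasome gene Psmb9 (-1.51) and Tapbp (-1.02), the peptide-loading protein tapasin, changed most on it. Of 23 tested ISGF3, IRF3 and IRF7 targets 5 were lower and 0 higher, led by the antiviral synthetase gene Oas3 (-2.43). The list medians were -0.78 and -1.42, and the median of all genes with a mean of at least 10 was 0.00 to the second decimal. MC38-MOCK#1 sample 3 stood above the other samples of its line for many of these genes. Without it 3 IRF1 targets (Psmb10, Casp1 and B2m) and 3 of the other targets (Oas3, Usp18 and Bst2) were lower, with medians of -0.56 and -0.76. Gbp3, Psmb9 and Tapbp were not called in that fit. Fibroblast markers summed to 1023 to 1246 normalized counts in MC38-COSMC KO and 678 to 964 in MC38-MOCK#1, with 2 of 5 called higher (Pdgfrb, 2.35, and Col1a2, 1.23) and 0 lower, and their part in the results was not tested. With equal totals in every sample, 1125 genes were called higher and 1747 lower, in place of 1367 and 1196.

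In MC38-CMAS KO the values of Irf1 were 545, 455 and 456, all below those of MC38-MOCK#1. The log2 fold change was -0.64 with SE 0.0868 (limma, adjusted p = 0.0106), and 1 of 6 tested members was called where 5.76% of all genes were. Irf2 was 283, 316 and 262 against 385, 317 and 355, and Irf9 was 218, 185 and 227 against 258, 253 and 500. Neither was called (adjusted p = 0.178 and 0.247, limma), although the samples of these members and of Irf1 did not overlap, as for 24.3% of all genes. Without single samples the adjusted p of Irf1 ranged from 0.0211 to 0.0843, and it missed the threshold in 4 of 6 such fits: without samples 2 or 3 of MC38-CMAS KO (adjusted p = 0.0722 and 0.0539), or 1 or 2 of MC38-MOCK#1 (0.0686 and 0.0843).

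Near the pathway, Nlrc5 was again lower (log2 fold change -0.96) and Tbk1 higher (0.41). Against the same mock line, Nlrc5 was also lower in MC38-WT (-1.83) and Tbk1 higher in MC38-MOCK#2 (0.63). Psmb10 was lower in MC38-WT (-0.57) and MC38-MOCK#2 (-0.34). In MC38-CMAS KO, IRF1 targets were lower in 1 of 17 tested, Psmb10 with -0.53. Of the ISGF3, IRF3 and IRF7 targets 2 of 23 were lower, Oas1a with -2.64 and Oas3 with -2.40. None of either list was higher, where 2.73% of all genes were lower and 3.02% higher. Without sample 3 of MC38-MOCK#1 these counts were 0 and 1 (Oas3), and the list medians were -0.39 and -0.38 in place of -0.53 and -0.74. Of 6 fibroblast markers 3 were higher (Col1a1, Pdgfrb and Col1a2) and 0 lower, with sums of 1083 to 1257 against 678 to 964, and their part in the results was not tested.

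The double knockout did not carry the low Irf1 of the single knockouts. MC38-DKO had 711, 630 and 814 normalized counts, which overlapped MC38-MOCK#1 and gave a log2 fold change of -0.08 with a 95% interval from -0.31 to 0.15. Of 7 tested members 0 were called (limma), where 0.092% of all genes were called, and 1 had an unadjusted p below 0.05. That member was Irf9, with 238, 187 and 209 against 258, 253 and 500 (log2 fold change -0.60, adjusted p = 0.623, limma). Without MC38-MOCK#1 sample 3 this fold change was -0.28. It was also the only member whose samples did not overlap, as did those of 11.2% of all genes.

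Set against MC38-CMAS KO, the line that shares its Cmas modification, MC38-DKO had more Irf1 in all 3 samples. The log2 fold change was 0.56 with SE 0.118 (limma, adjusted p = 0.0300), and 1 of 6 members was called beside 6.93% of all genes. The call was lost in each of the 6 fits without a single sample, with an adjusted p between 0.0704 and 0.156. Irf2, with 379, 384 and 318, lay above all samples of MC38-CMAS KO too, without a call (log2 fold change 0.33, adjusted p = 0.141, limma). Samples did not overlap for these 2 members and for 24.5% of all genes. Nlrc5 rose by 0.89 on the log2 scale (limma, adjusted p = 0.00375), and Tbk1 fell by 0.44 (limma, adjusted p = 0.0212). On the IRF1 target list 4 of 17 genes were higher and 0 lower, namely Tapbp, B2m, H2-K1 and H2-D1, all of MHC class I presentation, where 3.15% of all genes were higher and 3.78% lower. Fibroblast markers summed to 569 to 744 in MC38-DKO and 1083 to 1257 in MC38-CMAS KO, with 3 of 6 lower (Col1a1, -3.01, Pdgfrb, -2.99, and Col1a2, -2.30) and 0 higher, and their part in the results was not tested.

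The difference between these comparisons was tested itself, as the change from MC38-MOCK#1 to MC38-COSMC KO minus the change from MC38-CMAS KO to MC38-DKO. For Irf1 it was -1.22 with SE 0.144 (limma, adjusted p = 3.47e-05), with Irf1 lower in MC38-COSMC KO than in MC38-MOCK#1 and higher in MC38-DKO than in MC38-CMAS KO. C1galt1c1 itself differed in this test (-0.73, limma, adjusted p = 0.0201), and between MC38-DKO and MC38-CMAS KO its log2 fold change was 0.00552 (limma, adjusted p = 1). Its RNA level does not show whether the gene was disrupted in MC38-DKO. Irf1 was the 1 member called of 6 tested, where 22.1% of all genes were called. Every fit without a single sample kept the call, with values from -1.31 to -1.13. Nlrc5 (-2.27) and Tbk1 (1.09) were called in the same test, in opposite directions to each other. Irf2 (-0.39, adjusted p = 0.0920, limma) and Irf5 (2.40, adjusted p = 0.0843, limma) were not called. Of 5 fibroblast markers 3 were called with positive values (3.53 to 5.34), and their part in the results was not tested.

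**Figure D2:**
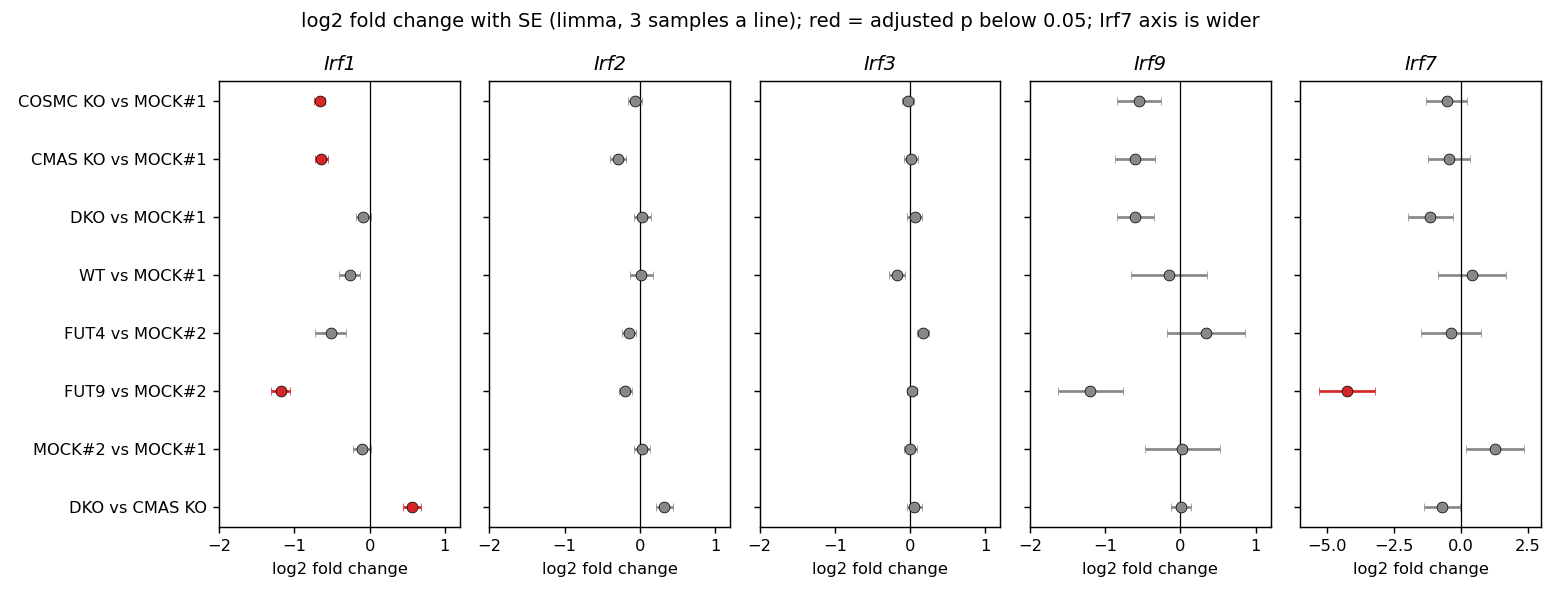
log2 fold changes (horizontal axes) of 5 members in the 8 pairwise comparisons of lines, with bars for the SE and red for an adjusted p below 0.05. Calls appear 4 times for Irf1 and once for Irf7, whose axis is wider, and bars of Irf3 are short and near 0.

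The largest differences of the family were found in MC38-FUT9. Irf1 was 316, 289 and 324 normalized counts in MC38-FUT9, and 644, 630 and 861 in MC38-MOCK#2. It was lower by a log2 fold change of -1.18 with SE 0.131 (limma, adjusted p = 0.00137). Irf7, the inducible amplifier of interferon genes, was 2, 1 and 10 in MC38-FUT9, each a few reads, and 41, 30 and 352 in MC38-MOCK#2. Its log2 fold change was -4.26 with a 95% interval from -6.71 to -1.80 (limma, adjusted p = 0.0262). The Irf7 samples did not overlap, but the call was lost without any single sample, with log2 fold changes from -4.98 to -3.16 and an adjusted p between 0.0528 and 0.128. In all, 2 of 6 members were called, where 24.1% of all genes were.

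Irf9 was 146, 143 and 134 in MC38-FUT9, below each value of MC38-MOCK#2 (268, 186 and 687). The log2 fold change of -1.20 with SE 0.433 was not called (limma, adjusted p = 0.0935), whereas a single limma fit of all 8 lines called it (adjusted p = 0.0411). It was -0.66 without MC38-MOCK#2 sample 3 and -1.60 without sample 2, not called in either fit. Irf2 was 301, 323 and 317 against 325, 361 and 392, also without overlap and without a call (log2 fold change -0.19, adjusted p = 0.186, limma). Samples did not overlap for 4 members, and for 36.8% of all genes. Irf3 lay at 612, 590 and 575 against 615, 561 and 572, a log2 difference of 0.02 with a 95% interval from -0.14 to 0.18.

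Stat2, which encodes a partner of IRF9 in ISGF3, was lower in MC38-FUT9. It was 234, 222 and 270 against 619, 472 and 1473 (log2 fold change -1.64, limma adjusted p = 0.0233). All 3 samples were below every sample of the mock line.

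Of 23 tested ISGF3, IRF3 and IRF7 targets, 18 were lower and 0 higher in MC38-FUT9, where 12% of all genes were lower and 12.1% higher. Ifi44 (log2 fold change -5.42), Oas1a (-5.16), Oas3 (-5.07) and Oasl2 (-5.03) fell most. Of 17 tested IRF1 targets 14 were lower and 0 higher, led by Gbp3 (-4.11), Gbp2 (-3.78), the cytokine gene Il15 (-3.70) and the immunoproteasome gene Psmb8 (-3.38). The list medians were -4.05 and -1.998, beside 0.03 for all genes with a mean of at least 10. Upstream, 7 of 15 kinases and adaptors were lower and 2 higher, with Tmem173, which encodes the adaptor STING, at 8 to 16 normalized counts against 74 to 179. MC38-MOCK#2 sample 3 was high for many targets, and without it 18 and 14 genes of the target lists were again lower, with medians of -3.02 and -1.59, and 1 IRF1 target was higher. With equal totals, 1979 genes were called higher and 3237 lower, in place of 2596 and 2570. The summed level of fibroblast markers overlapped, at 1583 to 2564 in MC38-FUT9 and 1213 to 2087 in MC38-MOCK#2, with 1 of 6 called (Pdgfra, 0.79).

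In the line labelled FUT4, Irf1 was 569, 366 and 572 against 644, 630 and 861 in MC38-MOCK#2. All 3 samples were lower, but the log2 fold change of -0.52 with SE 0.204 was not called (limma, adjusted p = 0.146), and it was -0.30 without sample 2 of that line. No member was called of 6 tested (0, limma), where 16.1% of all genes were, and Irf1 was the 1 member with an unadjusted p below 0.05 and the 1 without overlap, beside 32.1% of all genes. With all 8 lines in a single limma fit, Irf1 was called (adjusted p = 0.0192). Irf7 (118, 15 and 113) and Irf9 (552, 242 and 521) were high in samples 1 and 3 and low in sample 2, and Irf5 (12, 0 and 11) followed the same samples. Samples 1 and 3 share their passage and were closer to each other than any other pair within a line, with squared differences at a median of 1.57 times the sampling noise of reads, against at least 2.52 times in other pairs. Few target genes moved: Ifit2 (log2 fold change -1.40) alone of 23 ISGF3, IRF3 and IRF7 targets, and Gbp2 (-1.93) and Casp1 (1.89), in opposite directions, of 17 IRF1 targets, beside 8.04% of all genes lower and 8.1% higher. Without MC38-MOCK#2 sample 3, Ifit2 and Casp1 were called and Gbp2 was not, and the list medians went from -0.25 to 0.61 and from -0.02 to 0.25. Fibroblast markers summed to 602 to 826 in the line labelled FUT4 and 1213 to 2087 in MC38-MOCK#2, with 3 of 6 lower (Pdgfrb, Col1a1 and Col1a2) and 1 higher (Dcn). The epithelial marker sum in this line was 266 to 476, against 6 to 19 in MC38-MOCK#2, nearly all of it Krt20, and the part of either marker list in the results was not tested.

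MC38-WT and MC38-MOCK#2 were each set against MC38-MOCK#1, and no member was called in either comparison. MC38-WT had 538, 783 and 592 for Irf1, which overlapped MC38-MOCK#1 (log2 fold change -0.26, 95% interval -0.59 to 0.06). Of 6 members 0 were called and 0 had an unadjusted p below 0.05 in limma, where 5.51% of all genes were called, and samples did not overlap for 0 members and 23.4% of all genes. Between MC38-MOCK#2 and MC38-MOCK#1, the log2 fold change of Irf1 was -0.10 with a 95% interval from -0.40 to 0.19. Again 0 of 6 members were called, at an unadjusted p below 0.05 too (limma), and 0 did not overlap, beside 11.3% of all genes called and 28.7% without overlap. Without MC38-MOCK#2 sample 3, Irf1 was called in that comparison. Tbk1 was higher in MC38-MOCK#2 (log2 fold change 0.63, limma, adjusted p = 0.00460) and Traf3 lower (-0.37), and Nlrc5 was not called. Of 17 IRF1 targets 1 was lower (Psmb10, -0.34) and 0 higher, and of 23 ISGF3, IRF3 and IRF7 targets 0 were called. Of 6 fibroblast markers 2 were higher (Pdgfrb, 2.87, and Col1a1, 1.96) and 0 lower, and their part in the results was not tested.

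Irf3 and Irf2 varied least. Irf3, which is regulated chiefly by phosphorylation of its protein, ranged from 465 to 693 normalized counts over the 24 samples. Its log2 fold changes in the 8 pairwise comparisons were -0.18 to 0.17, with adjusted p-values of at least 0.232 (limma). Irf2 ranged from 262 to 432, with log2 fold changes of -0.29 to 0.33 and adjusted p-values of at least 0.141 (limma).

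Irf7 and Irf9, in contrast, differed most between samples of a line among the members with a mean of at least 10 normalized counts. Irf7 was 13, 21 and 102 in MC38-MOCK#1, 41, 30 and 352 in MC38-MOCK#2 and 6, 222 and 47 in MC38-WT. Irf9 was 258, 253 and 500, then 268, 186 and 687, and 133, 544 and 329 in the same lines. In each, the sample with the most Irf7 also had the most Irf9. The SD of Irf7 within a line reached 2.50 on the log2 scale, against at most 0.149 for Irf3 and 0.369 for Irf1.

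The 5 samples with the most Irf7 were sample 3 of both mock lines, sample 2 of MC38-WT and samples 1 and 3 of the line labelled FUT4. They had at least 102 normalized counts of Irf7, and the other 19 samples had at most 47. The same 5 samples held the 5 highest values of Irf9 (at least 500 against at most 329) and of Stat2 (at least 833 against at most 619). They also held the 5 highest mean levels of the ISGF3, IRF3 and IRF7 targets, whereas only 3 of the 5 highest Irf1 samples were among them. Their passages were 6, 7 and 8, which other samples with low Irf7 share.

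**Figure D3:**
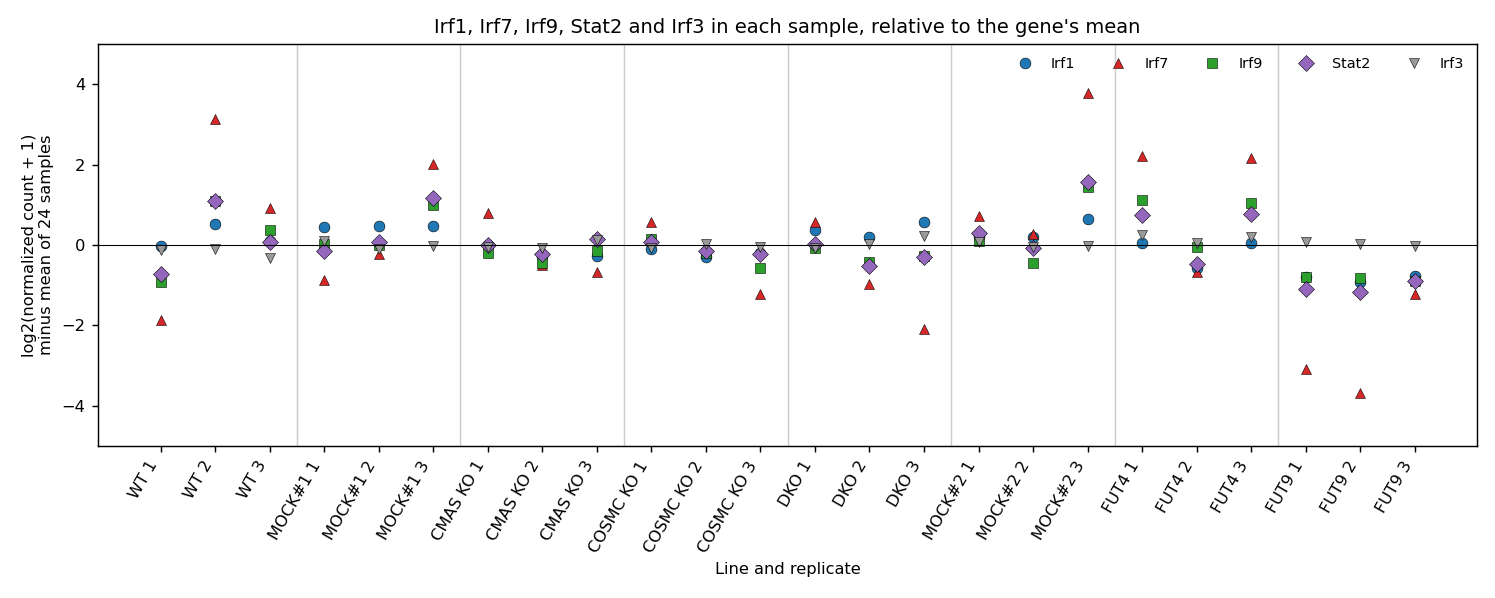
log2(normalized count + 1) of Irf1, Irf7, Irf9, Stat2 and Irf3 in each of the 24 samples, minus the gene's mean over all samples (vertical axis), with lines of cells set apart by grey rules. Irf7, Irf9 and Stat2 rise together in sample 3 of MC38-MOCK#1 and MC38-MOCK#2 and sample 2 of MC38-WT, and Irf3 stays near 0.

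As a description over the 24 samples, which share lines and a scaling, Irf7 had a Pearson r of 0.92 with the mean log2 level of 22 ISGF3, IRF3 and IRF7 targets and Irf9 one of 0.88. After each line's mean was taken away, r was 0.96 and 0.92. Irf1 had r of 0.90 with the mean of 16 IRF1 targets, and 0.83 within lines. For Irf3 and the ISGF3, IRF3 and IRF7 targets r was -0.13.

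Among 13515 genes with a mean of at least 10, those most like Irf1 over the 24 samples were Ube2l6 (r = 0.945), Apobec3 (0.944) and Tapbp (0.936). Most like Irf7 were Parp10 (0.963), Helz2 (0.954) and Irgm2 (0.942). Irf9 was most like Stat2 (0.938), its partner in ISGF3, and then Parp10 (0.924) and Helz2 (0.912). The likest genes for Irf2 were Sri (0.792), Tbc1d32 (0.740) and Magi1 (0.735), and those for Irf3 were Lhx6 (0.798), D030028A08Rik (0.794) and Rpusd3 (0.774), all with lower r.

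**Figure D4:**
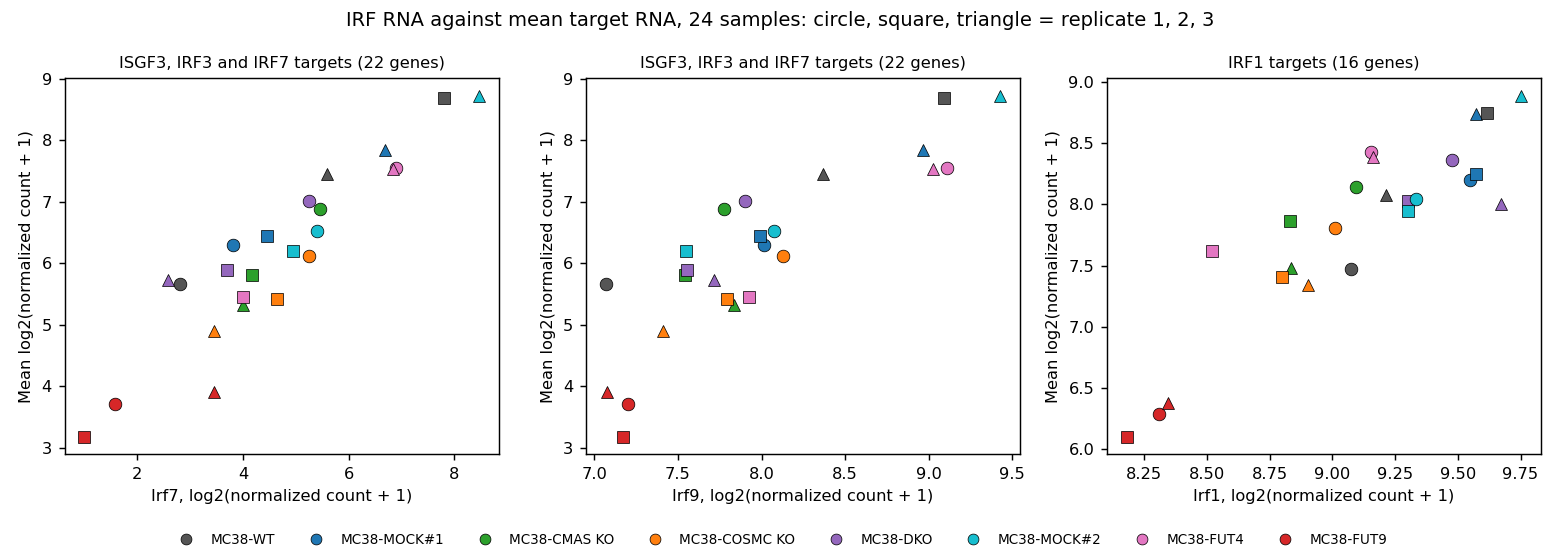
Each point is 1 of 24 samples, coloured by line, with the member's log2(normalized count + 1) on the horizontal axis and the mean of the same measure over the target list on the vertical axis. MC38-FUT9 lies lowest in target level in each panel, with r of 0.92 for Irf7, 0.88 for Irf9 and 0.90 for Irf1 over all samples.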

How the data were processed

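PolyA RNA of 24 samples was sequenced as single reads with a stranded kit. After quality trimming, the authors used HISAT2 2.0.4 for alignment to GRCm38 and counted reads per gene with featureCounts (Subread 1.5.0-p3) without multi-overlapping reads, and normalized the counts with edgeR 3.18.1. The strand setting of the counting is not given in the sources used here. The deposited table holds scores, that is scaled read counts that the authors rounded to whole numbers, so count models were not applied to them. Exon lengths in the table gave levels per kb. Gene coordinates are those of the same table (GRCm38), and promoter coordinates are those of RefSeq windows (GRCm38.p6).

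The test was limma (lmFit, eBayes with a trend) after a pseudocount of 1 and log2 transformation, fitted to both lines of a comparison (3 samples each). A gene needed at most 4 zeros in the 6 samples, and a Benjamini-Hochberg adjusted p below 0.05 over all genes was a call. The interaction used 12 samples (at most 8 zeros) and the F test all 24 (at most 16 zeros). Samples of a line are passages, so p-values measure the spread between passages, except in the line labelled FUT4. There samples 1 and 3 share a passage, so in tests with that line part of the spread lies within a passage. Comparisons with the same mock line share its samples. The members and lists were chosen with earlier results of these data known. The text names all members, up to 4 called genes per list by size, and the 3 genes most like each member with a mean of at least 10. Of 16 listed upstream genes, 15 were matched. Some listed genes are not reported here.

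On simulated data for MC38-COSMC KO against MC38-MOCK#1 and MC38-FUT9 against MC38-MOCK#2, the test was checked before use. Each library's scaling factor was estimated from gaps and doublings that rounding leaves among the small values. The estimator was revised several times after earlier forms had failed on simulated libraries and after estimates for the real libraries had been seen. Its final form recovered the factors of 14 simulated libraries to within 0.0333%, a fit to the simulations it was revised on rather than an independent check. Samples with the same number were not treated as pairs: correlations of their deviations ranged from -0.213 to 0.254. They were 0.0641 to 0.182 for MC38-DKO and MC38-CMAS KO. With MC38-MOCK#1 they were -0.173 to 0.0312 for MC38-COSMC KO and -0.213 to 0.101 for MC38-CMAS KO. In the knockout lines and MC38-MOCK#1, samples with the same number share their passage. Alternatives covered the pseudocount, filters, scaling, the variance trend, a replicate block, a fold threshold, a single fit of all lines, and samples left out. Software was limma 3.58.1 in R 4.3.3 and Python 3.11.15.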

Additional observations from a re-analysis of the deposited data

Results flagged for a closer look

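The difference in Irf1 between MC38-COSMC KO and MC38-MOCK#1 was not the one between MC38-DKO and MC38-CMAS KO. The test of the difference itself, (MC38-COSMC KO minus MC38-MOCK#1) minus (MC38-DKO minus MC38-CMAS KO), gave -1.22 on the log2 scale (limma interaction term, adjusted p = 3.47e-05). Irf1 was lower in 3 of 3 samples of MC38-COSMC KO than in any of MC38-MOCK#1, and higher in 3 of 3 samples of MC38-DKO than in any of MC38-CMAS KO. Samples did not overlap for 28.4% of all genes in the first of these comparisons and for 24.5% in the second. The test of the difference called 22.1% of all genes, and Irf1 was the 1 member called of 6 tested. C1galt1c1, the gene of COSMC, was called in the same test (-0.73, limma, adjusted p = 0.0201), and its RNA gave a log2 fold change of 0.00552 between MC38-DKO and MC38-CMAS KO (limma, adjusted p = 1). RNA level does not show whether the gene was disrupted in MC38-DKO. Each modification is represented by 1 line, so the modification and other differences between these lines cannot be told apart.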

How the results depend on the processing

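The 14 fold changes of members with an unadjusted p below 0.05 kept their direction under every setting run. Of all 56, 23 changed sign in at least 1 setting, none of them called there, and 4 of these with all samples kept (Irf3 3 times and Irf2 once, with equal totals). Settings other than samples left out left the number of called members within 1.5 times its value in 89 of 100 cases. The main counts were only 0 to 2, so cases that stayed at 0 are among the 89. The change from 2 to 3 in MC38-FUT9 against MC38-MOCK#2 is among them too. With a replicate block, 0 members were called for MC38-DKO set against MC38-CMAS KO, and for MC38-COSMC KO and MC38-CMAS KO set against MC38-MOCK#1. The adjusted p of Irf1 was 0.0834, 0.0886 and 0.123 there (limma). In these lines the replicate numbers follow passages 4, 5 and 6, so the block is also a passage block. The block called 4, 1, 0 and 0 genes in all in MC38-COSMC KO, MC38-CMAS KO, MC38-DKO and MC38-WT against MC38-MOCK#1, 795 for MC38-DKO set against MC38-CMAS KO and 1756 in the line labelled FUT4 against MC38-MOCK#2. With an absolute log2 fold change above 1, the same 3 comparisons had 0 members, since Irf1 changed by less. Without a variance trend the count was 1 in MC38-FUT9 against MC38-MOCK#2 (Irf7 lost, adjusted p = 0.0671) and 0 in MC38-DKO against MC38-CMAS KO. A pseudocount of 4 gave 2 in MC38-COSMC KO against MC38-MOCK#1 (Irf5 added), equal totals gave 2 in the interaction (Irf2 added), and all 8 lines in a single fit gave 1 in the line labelled FUT4 (Irf1) and 3 in MC38-FUT9 (Irf9 added). The causes of these changes were not tested.

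With single samples left out, called members ranged from 1 to 2 in MC38-COSMC KO against MC38-MOCK#1 (Irf5 added without MC38-MOCK#1 sample 3), from 0 to 1 in MC38-CMAS KO against it and from 0 to 1 in MC38-MOCK#2 against it. They were 1 to 1 in MC38-FUT9 against MC38-MOCK#2 and 0 to 0 in MC38-DKO against MC38-CMAS KO in all 6 fits. The interaction had 1 to 2: Irf5 was added without MC38-DKO sample 1 or MC38-MOCK#1 sample 3, and Irf2 without MC38-DKO sample 3. The F test over all lines had 1 to 4, with 4 (Irf1, Irf5, Irf7 and Irf9) without sample 2 of the line labelled FUT4, 3 without MC38-MOCK#2 sample 2 or MC38-WT sample 1 or 2, and 2 without MC38-DKO sample 1, MC38-FUT9 sample 3, or sample 3 of either mock line. Averaging samples 1 and 3 of the line labelled FUT4, chosen after seeing the data, left its count at 0. For Irf5 and Irf8 the depth gives only a few reads a sample, so the limma fits here could not detect differences in them with confidence.

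All-gene counts moved by over 1.5 times without a variance trend (1135 in MC38-COSMC KO, 726 in MC38-CMAS KO, 40 in MC38-DKO and 717 in MC38-WT against MC38-MOCK#1, 2270 in the line labelled FUT4 and 3430 in MC38-FUT9 against MC38-MOCK#2, 1389 between the mock lines, 692 in MC38-DKO against MC38-CMAS KO). With all lines in a single fit they did so in MC38-CMAS KO (2154), MC38-DKO (148), MC38-WT (2924) and MC38-MOCK#2 (3889) against MC38-MOCK#1, and in the double against the CMAS knockout (2360). Without single samples they were 675 (without MC38-COSMC KO sample 2) to 2137 in MC38-COSMC KO, 122 to 876 in MC38-CMAS KO, 0 to 4 in MC38-DKO, 31 to 693 in MC38-WT and 632 to 1737 in MC38-MOCK#2 against MC38-MOCK#1. The lowest of these came without MC38-MOCK#1 sample 2 for MC38-CMAS KO, MC38-WT and MC38-MOCK#2. They were 1621 to 3112 in the line labelled FUT4, 3089 to 5065 in MC38-FUT9, 231 (without MC38-CMAS KO sample 2) to 761 in the double against the CMAS knockout and 3925 to 4697 in the interaction.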
